A study of Mus musculus with 4 samples.

Results

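The acrosome is a vesicle of the sperm head that is built from the Golgi apparatus in spermatids, spreads over the nucleus and is held there by the nuclear envelope. It carries enzymes and binding proteins for the egg coat, and its membranes carry the proteins that let the sperm fuse with the egg. Transcripts of some acrosome genes are already made in pachytene spermatocytes, whereas others, with Acrv1 as the best known example in the mouse, are transcribed in round spermatids. Here 10 acrosome genes were followed in sorted primary spermatocytes. They were taken by symbol from the 53700 genes of the deposited table, and all 10 were found there. Acr, Acrbp, Acrv1 and Spaca3 encode acrosome contents, and Zpbp and Zpbp2 encode related zona pellucida binding proteins of the acrosome. Spaca1 and Izumo1 encode membrane proteins, Dpy19l2 encodes an anchor in the nuclear envelope and Spata16 encodes a Golgi protein.

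Primary spermatocytes were sorted from testis cell suspensions by flow cytometry after Hoechst staining, and their RNA was sequenced. The donors were circSry KO and wild type males of the C57BL/6 strain, 8 weeks old. In the circSry KO line the splice acceptor upstream of the Sry coding region was deleted in the germline by CRISPR-Cas9, and this site is used to form the circular Sry RNA of adult testis. Each group had 2 mice, giving circSry KO replicates 1 and 2 and wild type replicates 2 and 3. The expected counts, which are the read numbers that RSEM assigns to each gene, summed to 8839461 and 8191397 in circSry KO and to 8045148 and 8422943 in wild type. Sry had a count of 0 in all 4 libraries, so these libraries do not check the genotype. The 10 genes held 0.315% and 0.310% of the counts in circSry KO replicates 1 and 2, against 0.159% and 0.213% in wild type replicates 2 and 3.

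Whether loss of circSry goes with a change in acrosome genes was examined by comparing circSry KO with wild type. The answer differed between the genes. Acrv1, Spaca1, Spaca3 and Izumo1 rose in the circSry KO libraries of sorted cells by 2.86-fold to 3.78-fold, and none of the other 6 was called. A gene was called where the quasi-likelihood test of edgeR gave a Benjamini-Hochberg adjusted p under 0.05 over the 17766 genes tested and the groups differed by 1 or more on the log2 scale. Of all genes tested, 20.0% were called higher and 15.0% were called lower in circSry KO. Of the 10 acrosome genes 4 were called higher and 0 lower, and all 10 had a positive log2 fold change. All 10 were also positive with DESeq2, edgeR's likelihood ratio test and limma. The count of 0 lower genes, also at an unadjusted p under 0.05, follows from these signs. The 10 genes had a median log2 fold change of 0.68, and all genes tested had one of 0.07. Without wild type replicate 2, only Acrv1 of the 4 was called, and without wild type replicate 3, Izumo1 was not called. Fewer genes were also called over all genes in each of these settings.

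**Figure D1:**
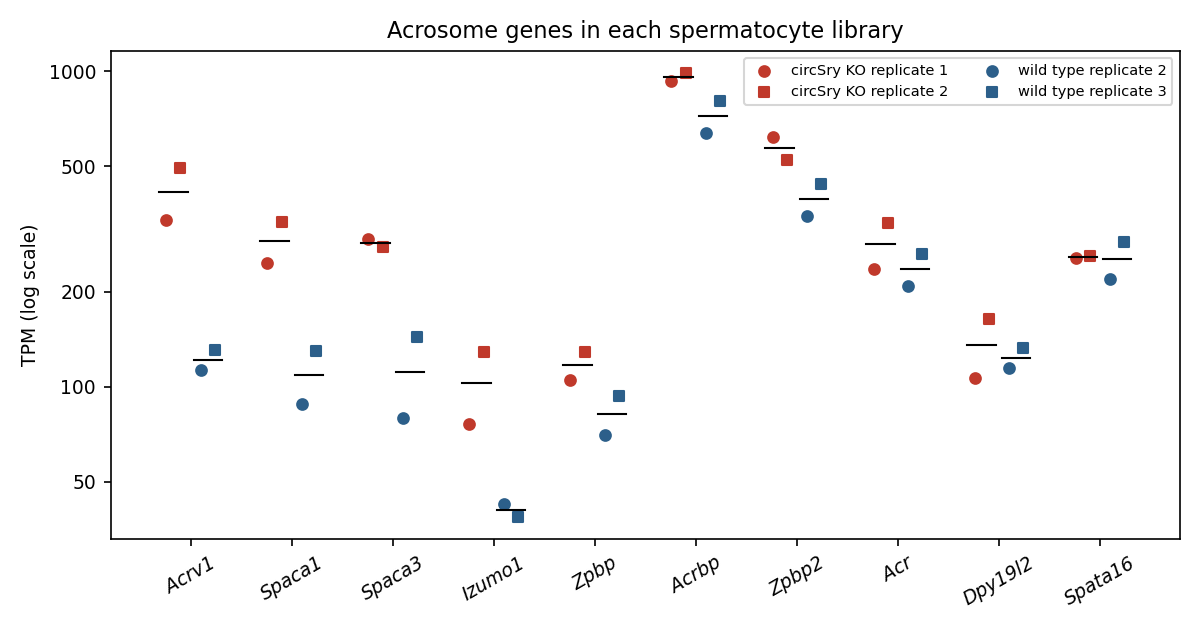
Expression of the 10 acrosome genes in TPM on a log axis, with circSry KO in red and wild type in blue, 1 point per mouse and a line at each group mean. Both circSry KO points lie above both wild type points for Acrv1, Spaca1, Spaca3, Izumo1, Zpbp, Acrbp and Zpbp2, and the groups overlap for Acr, Dpy19l2 and Spata16.

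Among the genes of acrosome contents, Acrv1 had the largest difference. Acrv1 encodes SP-10, a protein of the acrosomal matrix. It had 336 and 493 TPM in circSry KO replicates 1 and 2, against 113 and 131 TPM in wild type replicates 2 and 3. TPM, are transcript levels corrected for transcript length and sum to the same total in each library. Both circSry KO libraries were far above both wild type libraries. The log2 fold change was 1.92 (standard error 0.33), with an adjusted p of 0.00062 in the quasi-likelihood test of edgeR, and the estimate lay between 1.73 and 2.07 with each library left out in turn. Acrv1 was the third most abundant of the 10 genes in circSry KO and the sixth in wild type.

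Spaca3, which encodes a lysozyme-like protein of the acrosome, had 295 and 277 TPM in circSry KO, against 79.8 and 144 TPM in wild type. The circSry KO mice lay close together, and the wild type mice differed from each other 1.80-fold. The log2 fold change was 1.63 (standard error 0.36, adjusted p = 0.00293). It was 1.22 without wild type replicate 2, where it was no longer called (adjusted p = 0.157), and 2.14 without wild type replicate 3.

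Acr encodes proacrosin, the precursor of the serine protease acrosin, and Acrbp encodes the protein that binds it and takes part in its maturation. Acr had 237 and 330 TPM in circSry KO, against 208 and 263 TPM in wild type, so the groups overlapped. The log2 fold change was 0.49 (standard error 0.32, adjusted p = 0.245). Acrbp was the most abundant of the 10 genes in both groups, with 931 and 987 TPM in circSry KO, against 637 and 806 TPM in wild type. The groups did not overlap, but the log2 fold change of 0.63 (standard error 0.34) did not pass the test (adjusted p = 0.158). Gm44597 shares 975 exon bases with Acrbp on the same strand, with 48.7 to 68.2 counts per library against 2903 or more for Acrbp.

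Zpbp and Zpbp2 are paralogs whose proteins bind the egg coat and help to shape the acrosome. Zpbp had 105 and 129 TPM in circSry KO, against 70.6 and 93.2 TPM in wild type. Zpbp2 had 617 and 523 TPM in circSry KO, against 347 and 439 TPM in wild type. For each of them both circSry KO libraries were above both wild type libraries, yet the log2 fold changes of 0.73 (standard error 0.33, adjusted p = 0.0913) and 0.57 (standard error 0.34, adjusted p = 0.204) did not pass the test. The unadjusted p of Zpbp was 0.0421. Within a library Zpbp2 was 5.88 and 4.05 times as abundant as Zpbp in circSry KO, against 4.91 and 4.71 times in wild type. The ratio between the paralogs thus varied more within circSry KO than between the groups. Spmip7 shares 223 exon bases with Zpbp on the other strand. It had 463 and 490 counts in circSry KO, against 75 and 143 in wild type, and reads of the shared stretch cannot be told apart in a library without strand information.

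Of the membrane proteins, SPACA1 lies in the acrosomal membrane and is needed in the mouse for the acrosome to form its shape. Spaca1 had 247 and 332 TPM in circSry KO, against 87.9 and 130 TPM in wild type. The groups were well apart and the log2 fold change was 1.65 (standard error 0.34, adjusted p = 0.00194). The estimate was 1.32 without wild type replicate 2 and not called there (adjusted p = 0.122). IZUMO1 is exposed when the acrosome opens and binds JUNO on the egg before fusion. Izumo1 was the least abundant of the 10 genes in both groups, with 76.4 and 129 TPM in circSry KO, against 42.4 and 38.7 TPM in wild type. Here the wild type mice lay close together and the circSry KO mice differed 1.69-fold. The log2 fold change was 1.52 (standard error 0.31, adjusted p = 0.00206). Izumo1 was not called without wild type replicate 2 (log2 fold change 1.49, adjusted p = 0.0788) or wild type replicate 3 (1.45, adjusted p = 0.0628). Rasip1 shares 1289 exon bases with Izumo1 on the same strand, and RSEM divides their reads by estimate. Rasip1 had 124 and 126 counts in circSry KO and 98.7 and 77.0 in wild type, against 809 and 1028 counts of Izumo1 in circSry KO and 311 and 308 in wild type.

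The genes of acrosome attachment and Golgi origin had the smallest differences. DPY19L2 sits in the inner nuclear membrane and holds the acrosome to the nucleus, and its loss gives round-headed sperm in the mouse. Dpy19l2 had 106 and 164 TPM in circSry KO, against 115 and 132 TPM in wild type. SPATA16 is a Golgi protein that, in humans, is linked to round-headed sperm. Spata16 had 256 and 259 TPM in circSry KO, against 219 and 287 TPM in wild type. In each of them the wild type values lay within, or spread around, the circSry KO values. The log2 fold changes were 0.34 for Dpy19l2 (standard error 0.33, adjusted p = 0.434) and 0.27 for Spata16 (standard error 0.33, adjusted p = 0.546).

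**Figure D2:**
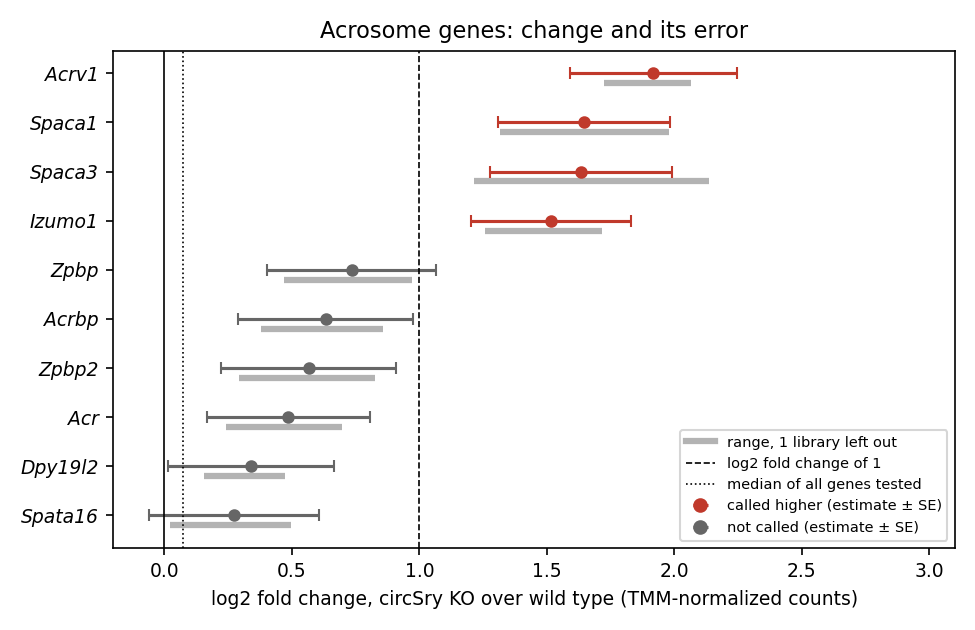
Log2 fold change of circSry KO over wild type for the 10 genes, with its standard error from edgeR, red where called and grey where not, and a pale bar for the range of estimates with 1 library left out. The 4 called genes lie between 1.52 and 1.92 and the other 6 between 0.27 and 0.73.

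The order of the 10 genes by level in TPM differed between the groups. In circSry KO it ran Acrbp, Zpbp2, Acrv1, Spaca1, Spaca3, Acr, Spata16, Dpy19l2, Zpbp and Izumo1. In wild type it ran Acrbp, Zpbp2, Spata16, Acr, Dpy19l2, Acrv1, Spaca3, Spaca1, Zpbp and Izumo1. In each group 5 of the 9 pairs of neighbours in this order had libraries that overlapped, among them Spaca1, Spaca3, Acr and Spata16 in circSry KO and Dpy19l2, Acrv1, Spaca3, Spaca1 and Zpbp in wild type. By TPM, both circSry KO libraries were above both wild type libraries for 7 of the 10 genes, as for 29.5% of all genes tested. By CPM, which are counts scaled to library size and here by TMM as in the edgeR test, this held for 9, with Spata16 as the exception, and for 36.6% of all genes tested. The wild type mice also differed in these genes, since 9 of the 10 had more TPM in replicate 3 than in replicate 2, against 40.3% of all genes tested.

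A ratio between genes of 1 library does not depend on how the library was scaled, so each gene was also set against Acr, a denominator chosen after the values were seen. The ratio of Acrv1 to Acr was 1.42 and 1.49 in circSry KO, against 0.542 and 0.497 in wild type. The ratio of Spaca1 to Acr was 1.04 and 1.01 in circSry KO, against 0.423 and 0.493 in wild type. Spaca3 and Izumo1 likewise had higher ratios in both circSry KO mice, with means of 1.04 ± 0.288 and 0.357 ± 0.0486 in circSry KO, against 0.464 ± 0.114 and 0.175 ± 0.0402 in wild type (SD, n = 2). These ratios restate, within a library, the unequal fold changes of genes already described and are no separate support for them. The ratios of Acrbp, Zpbp2 and Spata16 to Acr overlapped between the groups. Zpbp lay above wild type in each mutant, at 0.443 and 0.391 in circSry KO, against 0.339 and 0.354 in wild type, and Dpy19l2 lay below, at 0.450 and 0.496 in circSry KO, against 0.552 and 0.502 in wild type. These ratios were not tested, since both the genes and Acr were chosen with their values known.

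**Figure D3:**
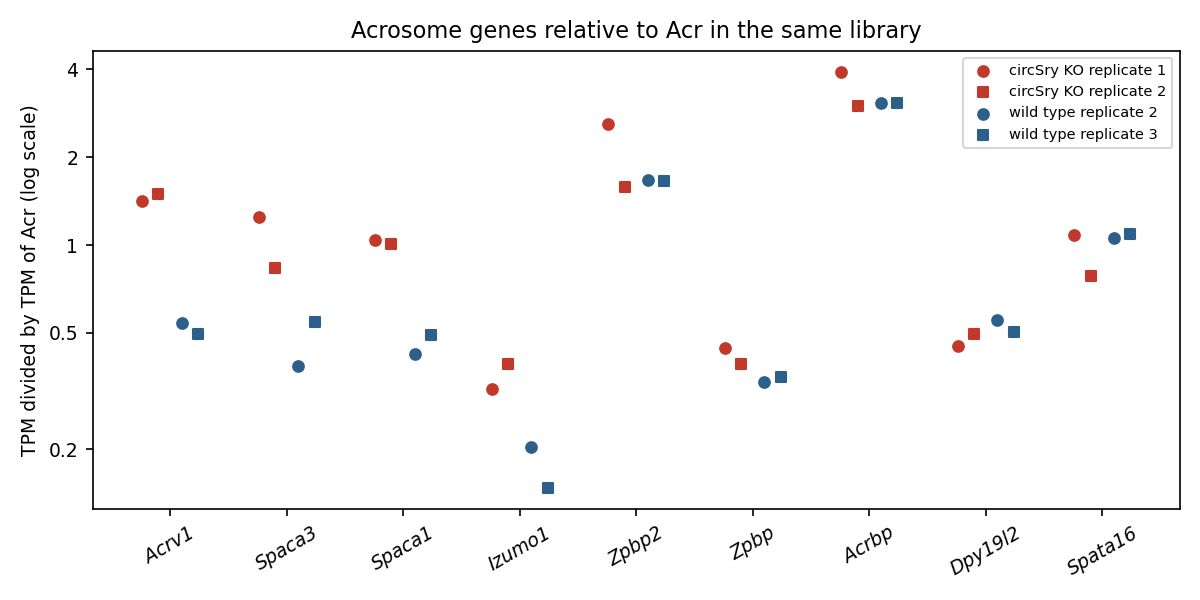
TPM of 9 acrosome genes divided by the TPM of Acr in the same library, on a log axis, with circSry KO in red and wild type in blue and 1 point per mouse. Acrv1 lies at 1.42 and 1.49 in circSry KO and at 0.542 and 0.497 in wild type, whereas Acrbp, Zpbp2 and Spata16 overlap between the groups.

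The stretches around the annotated transcription starts of the 4 genes that rose are shown to see what they share in sequence. Each holds 250 bases before and 50 bases from the start of the canonical transcript of GENCODE M39 on GRCm39, read 5′ to 3′ on the strand of the gene. They lie at chr9:36604266-36604565 for Acrv1, chr4:34050142-34050441 for Spaca1 (minus strand), chr11:80748928-80749227 for Spaca3 and chr7:45270958-45271257 for Izumo1. The stretch of Spaca3 lies inside the annotated gene, which begins at chr11:80744060, and the bases around that earlier position were not searched. Capitals mark, on either strand, the motifs that the next paragraph spells out.
Acrv1: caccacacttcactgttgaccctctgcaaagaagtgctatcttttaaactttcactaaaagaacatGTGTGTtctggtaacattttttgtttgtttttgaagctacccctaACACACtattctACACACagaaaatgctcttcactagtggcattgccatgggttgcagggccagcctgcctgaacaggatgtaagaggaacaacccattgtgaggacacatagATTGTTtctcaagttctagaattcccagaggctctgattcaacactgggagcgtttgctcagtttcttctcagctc
Spaca1: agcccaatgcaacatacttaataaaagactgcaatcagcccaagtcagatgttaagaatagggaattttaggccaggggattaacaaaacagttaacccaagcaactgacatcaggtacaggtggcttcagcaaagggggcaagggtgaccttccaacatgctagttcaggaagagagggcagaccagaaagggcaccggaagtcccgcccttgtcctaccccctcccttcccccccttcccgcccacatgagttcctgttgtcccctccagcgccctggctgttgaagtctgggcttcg
Spaca3: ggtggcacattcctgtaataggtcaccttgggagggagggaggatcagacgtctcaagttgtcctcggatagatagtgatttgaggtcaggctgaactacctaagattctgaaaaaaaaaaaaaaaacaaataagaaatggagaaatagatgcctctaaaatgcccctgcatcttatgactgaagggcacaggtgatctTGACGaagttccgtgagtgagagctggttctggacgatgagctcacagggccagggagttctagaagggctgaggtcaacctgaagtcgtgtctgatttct
Izumo1: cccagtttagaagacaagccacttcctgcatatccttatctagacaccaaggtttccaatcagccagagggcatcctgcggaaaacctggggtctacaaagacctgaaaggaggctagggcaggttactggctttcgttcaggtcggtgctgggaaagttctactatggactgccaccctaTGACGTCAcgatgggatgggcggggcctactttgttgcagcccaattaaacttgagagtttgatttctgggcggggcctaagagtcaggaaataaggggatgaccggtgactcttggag

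TGACG is the core of the cAMP response element, which the spermatid regulator CREM binds, and the full palindrome TGACGTCA contains it on both strands. Izumo1 held the full element, starting 69 bases before the transcription start, and was the only one of the 10 genes to do so. Of 21260 promoters of protein-coding genes, 2.45% held it. These promoters, called all below, left out a chromosome that holds none of the 10 genes. The core was in 4 of the 10 promoters, those of Izumo1, Spaca3, Zpbp2 and Dpy19l2, and in 22.5% of all. GTGTGT, a sequence studied in the mouse Acrv1 promoter as a binding site of Tardbp, occurred 3 times in Acrv1, also in Acrbp, and in 17.5% of all promoters. AACAAT, the core bound by SOX proteins, was in Acrv1 and Dpy19l2 and in 10.6% of all. GTTGCC, part of the motif of RFX proteins, was in Acrbp and in 11.8% of all, and TATAAA was in 0 of the 10 and in 13.3% of all. Searched as well, but not in capitals, were the CCAAT box, spelled as its name, GGGCGG of the GC box and CCGTTA, the core bound by MYB proteins. CCAAT was in 4 of the 10 promoters, those of Spaca1, Izumo1, Acr and Zpbp, and in 40% of all. GGGCGG was in 5, those of Spaca1, Izumo1, Dpy19l2, Spata16 and Zpbp2, and in 42.4% of all, and CCGTTA was in 0 and in 2.96% of all. Spaca1 thus held CCAAT and GGGCGG alone of these motifs, and none of them was in all of Acrv1, Spaca1, Spaca3 and Izumo1. The promoters of the 10 genes had few CG dinucleotides, with 8 of 10 under the median of 11 over all promoters, from 1 in Acrv1 to 26 in Zpbp2. A match is a string of letters and was not tested as a site. In GRCm39 Acrv1 lies at chr9:36604516-36610143 with 4 exons, Spaca1 at chr4:34024872-34050191 with 7, Spaca3 at chr11:80744060-80758646 with 5 and Izumo1 at chr7:45271208-45278247 with 10, so the 4 genes were on 4 chromosomes.

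Other genes of the acrosome, taken from lists by function, were more often higher than lower. In circSry KO, 34 of 74 such genes tested were higher and 7 were lower, and their median log2 fold change was 0.79. Of all genes tested, 20.0% were higher and 15.0% were lower. Of 20 other acrosomal enzymes, inhibitors and matrix proteins, 12 were higher and 2 lower, with a median of 1.80. Cabs1, which encodes a calcium-binding protein of spermatids, had 239 and 328 TPM in circSry KO, against 41.1 and 49.5 TPM in wild type (log2 fold change 2.88, adjusted p = 6.1e-05). Prss37, a protease-like gene of the acrosome, and Eqtn, which encodes equatorin of the acrosomal membrane, had log2 fold changes of 2.41 and 2.13. The lower genes were Tex101 and Tmprss12, a serine protease gene named after its values were seen, with log2 fold changes of -3.16 and -1.83. TEX101 is a surface protein of germ cells that is shed from mature sperm, and it is not a protein of the acrosome itself. Its gene is nevertheless counted among the 2 lower genes of this list and the 7 lower genes of all these lists. Tex101 had 70.0 and 46.9 TPM in circSry KO, against 801 and 523 TPM in wild type. The abundant genes Dkkl1 and Crisp2 were not called, with log2 fold changes of 0.48 and 0.95 (adjusted p = 0.320 and 0.0553). This list had 6 higher and 2 lower genes without wild type replicate 2.

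Of 15 other genes of sperm-egg fusion and binding, 9 were higher and 0 were lower by edgeR. The lower count was also 0 by DESeq2, by limma and at an unadjusted p under 0.05. Shares over all genes tested were 20.0% higher and 15.0% lower. The median of this list on the log2 scale was 1.3. Izumo2 and Izumo3, paralogs of Izumo1, had 304 ± 16.6 and 149 ± 8.73 TPM in circSry KO, against 67.7 ± 10.4 and 28.3 ± 10.7 TPM in wild type (SD, n = 2). Their log2 fold changes were 2.33 and 2.39. Plcz1, whose product activates the egg, and Llcfc1, which is needed for fusion in the mouse, had log2 fold changes of 2.17 and 1.78. The sperm surface genes Adam3 and Adam2 were not called, with log2 fold changes of 0.51 and -0.12. This list had 4 higher genes without wild type replicate 2 and 6 without wild type replicate 3 or by limma.

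Of 28 genes of acrosome biogenesis and anchoring, 11 were higher and 3 lower, with a median of 0.22 on the log2 scale. Over all genes tested 20.0% were higher and 15.0% lower, so the 3 lower genes do not exceed that share. The higher genes included Fam71f2 and Fam71f1, a pair of Golgi-associated genes, with log2 fold changes of 2.97 and 2.04. Fam71f2 had 442 and 451 TPM in circSry KO, against 73.4 and 64.3 TPM in wild type. Cylc1, a cytoskeletal gene of the sperm head, and Capza3, an actin-capping gene, had log2 fold changes of 2.60 and 2.32. The 3 lower genes, of which none was due to be named by rule, were Gopc and Vps54, which act in Golgi vesicle traffic, and Sun1, a nuclear membrane gene, with log2 fold changes of -1.86, -1.65 and -1.27. Ccdc136 and Tbpl1 were the most abundant that were not called, with log2 fold changes of 0.25 and 0.65. Tbpl1 is also counted in the list of pachytene and diplotene markers below. This list had 5 higher genes and 1 lower gene without wild type replicate 2. Of 11 tested genes of acrosomal exocytosis and its ion channels, 2 were higher and 2 lower. These counts are near the shares of all genes tested, 20.0% higher and 15.0% lower. The channel genes Catsper1 and Kcnu1 of the sperm tail had log2 fold changes of 1.48 and 1.31, and Vamp2, a gene of vesicle fusion, had one of -1.09. Without circSry KO replicate 2 this list had 0 higher and 4 lower genes by edgeR's quasi-likelihood test, and without wild type replicate 2 it had 0 higher and 1 lower.

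**Figure D4:**
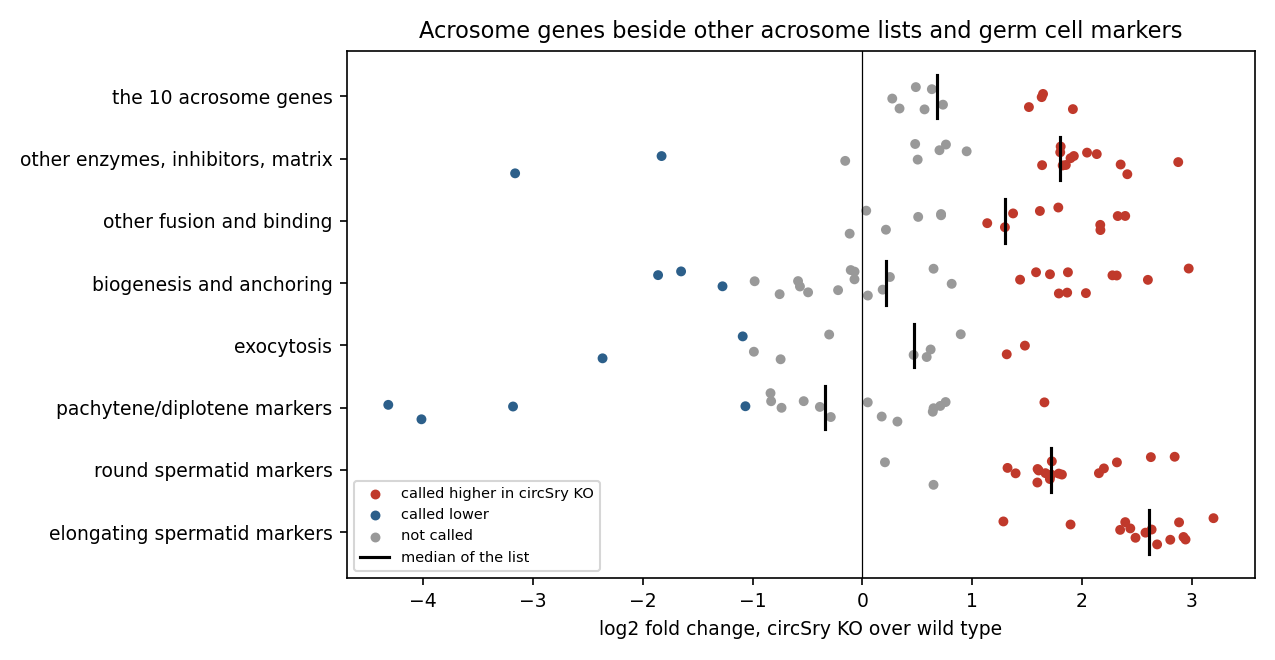
Log2 fold change of circSry KO over wild type for every tested gene of the 10 acrosome genes, of the 4 other acrosome lists and of the markers of pachytene and diplotene spermatocytes, round spermatids and elongating spermatids, coloured by call, with a line at each median. The 4 acrosome genes that rose lie near the round spermatid median of 1.71, and the other 6 lie between it and the pachytene and diplotene median of -0.34.

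Markers of later germ cells moved in the same libraries, so they are given beside the acrosome genes. Of 18 markers of round spermatids 16 were higher, their median being 1.71 on the log2 scale, and all 14 markers of elongating spermatids were higher, their median being 2.61. The 4 acrosome genes that rose lay between 1.52 and 1.92. Of 18 markers of pachytene and diplotene spermatocytes 1 was higher and 4 were lower, with a median of -0.34. Among 16 markers of leptotene and zygotene spermatocytes 9 were lower. Shares over all genes tested were 20.0% higher and 15.0% lower, and the 4 lower pachytene and diplotene markers are near the latter. Ldhc, the lactate dehydrogenase gene of meiotic germ cells, had 4581 and 4863 TPM in circSry KO, against 4921 and 5812 TPM in wild type. Ybx2, which encodes an RNA-binding protein of germ cells, had 1922 and 1745 TPM in circSry KO, against 3636 and 3658 TPM in wild type, and was not called. Syce1 and Sycp3 are genes of the synaptonemal complex. Syce1 had 354 and 292 TPM in circSry KO, against 347 and 413 TPM in wild type, and was not called. Sycp3 was lower, with 122 and 61.6 TPM in circSry KO, against 430 and 326 TPM in wild type. The pachytene and diplotene sum was 10741 ± 106 TPM in circSry KO, against 14048 ± 931 TPM in wild type, and the leptotene and zygotene sum was 816 ± 121 TPM in circSry KO, against 1635 ± 242 TPM in wild type (SD, n = 2). Summed over the markers, round spermatid expression was 5967 and 6796 TPM in circSry KO, against 2160 and 2775 TPM in wild type. The elongating spermatid sum was 53057 and 43395 TPM in circSry KO, against 8684 and 8391 TPM in wild type. The 10 acrosome genes summed to 3207 and 3623 TPM in circSry KO, against 1919 and 2464 TPM in wild type, a ratio of group means of 1.56. The acrosome sum was thus 0.537 and 0.533 times the round spermatid sum in circSry KO, against 0.889 and 0.888 times in wild type. It was 0.297 and 0.340 times the pachytene and diplotene sum in circSry KO, against 0.143 and 0.168 times in wild type. The part of spermatids among the sorted cells in these differences was not tested, and in such bulk samples more cells of a type and more RNA per cell cannot be told apart. Without wild type replicate 2, 5 round spermatid and 12 elongating spermatid markers were higher.

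**Figure D5:**
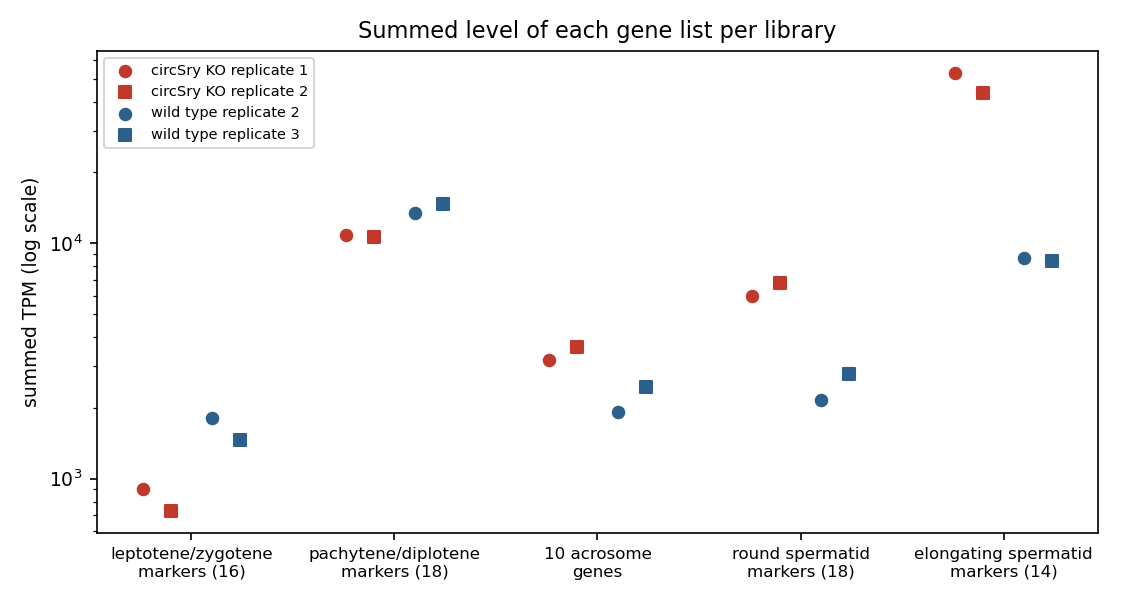
Summed TPM of the 10 acrosome genes and of 4 lists of germ cell markers in each library, on a log axis, with circSry KO in red and wild type in blue. The acrosome sum is 3207 and 3623 TPM in circSry KO and 1919 and 2464 TPM in wild type, while the sum of pachytene and diplotene markers lies lower, and the sums of both spermatid lists lie higher, in circSry KO.

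Markers of somatic cells differed in some lists and not in others. In circSry KO, higher calls were made for 14 of 14 leukocyte and macrophage markers, 11 of 11 peritubular and stromal markers and 10 of 11 tested Sertoli markers. The leukocyte sum was 434 to 605 TPM in circSry KO, against 34.4 to 42.0 TPM in wild type. The stromal sum was 550 to 583 TPM in circSry KO, against 129 to 166 TPM in wild type. The Sertoli sum was 270 to 565 TPM in circSry KO, against 95.1 to 130 TPM in wild type. By contrast 8 of 9 Leydig markers were lower, with sums of 671 to 750 TPM in circSry KO, against 1701 to 1989 TPM in wild type. Without wild type replicate 2 the calls were 13 leukocyte, 7 stromal and 7 Sertoli markers higher and 3 Leydig markers lower, and without wild type replicate 3 they were 13, 7 and 8 higher and 4 lower. Endothelial markers had 0 of 9 called by edgeR (0 also at an unadjusted p under 0.05) and by DESeq2 and 1 higher by limma, with sums of 63.4 to 63.5 TPM in circSry KO, against 55.9 to 59.8 TPM in wild type. Of 4 tested erythroid markers 1 was higher, and of 14 tested spermatogonial markers 6 were higher and 2 were lower. Shares over all genes tested were 20.0% higher and 15.0% lower. The erythroid count and the lower spermatogonial count are near these shares. No marker of these lists was at 0 in all 4 libraries. Their part in the values of the acrosome genes was not tested.

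The genes outside the acrosome set whose profile over the 4 libraries was closest to the median profile of the 10 genes were Gm31518, Lmnb2, Nup50, Bag5 and Mrrf. Closeness was the Euclidean distance between centred values of log2(TPM + 1), over 9675 genes with a mean of at least 10 TPM, and was 0.0516 to 0.0846 for these 5. Bag5, a co-chaperone gene, had 604 and 677 TPM in circSry KO, against 363 and 467 TPM in wild type. Of the acrosome genes themselves Zpbp was closest to their median profile, with 19 other genes closer still, and Acrv1 was farthest, with 4780 closer.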

How the data were processed

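Primary spermatocytes of circSry KO mice (replicates 1 and 2) and wild type mice (replicates 2 and 3) were sequenced from TruSeq libraries, a kit that does not mark strand. The authors aligned reads to GRCm39 with STAR 2.7.0f, and the submitters' notes also list mm9. The deposited expected counts are the authors' RSEM 1.3.2 estimates per gene, not normalized. The deposited TPM are scaled by the authors to a fixed sum per library, and the deposited FPKM are the authors' fragments per kilobase, scaled to depth. Which annotation release was used is not given in the sources used. The authors' own edgeR comparison (fold changes, p-values) was not used, nor were 4 columns of a second TPM sheet.

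Expected counts were rounded and tested with edgeR 4.0.16 in R 4.3.3 after filterByExpr and TMM scaling, for 17766 of 53700 genes, with Benjamini-Hochberg adjustment. The script was tested on simulated data. Each standard error was the size of the log2 change divided by the square root of F. Alternatives used DESeq2 1.42.0, limma 3.58.1 and other filters and scalings. Totals were 8045148 to 8839461 per library. An observed 0 is compatible with 3 counts (0.339 to 0.373 CPM), for counting error only. Replicates differed by more than sampling noise (chi-square per gene 35.7 in circSry KO and 11.2 in wild type). Gene positions and promoters are from GENCODE M39 on GRCm39, where 52610 genes of the table matched by Ensembl ID. Members and lists were chosen with earlier results of these data known. Besides the members, the rule named up to 4 called genes by adjusted p and 2 uncalled genes by mean TPM of each other acrosome list, the 2 most abundant genes of a marker list, and the 5 closest profiles. Of marker genes so named, Ldhc, Ybx2, Syce1 and Sycp3 are given, since the lists are described by counts and sums. A gene that the rule named is not reported here.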

Additional observations from a re-analysis of the deposited data

How the results depend on the processing

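No paired analysis was possible because the groups share only replicate number 2. Of 120 values of the 10 acrosome genes under 12 alternatives, 116 kept their direction and their side of the threshold and 4 kept only the direction. These 4 were Spaca1, Spaca3 and Izumo1 without wild type replicate 2 and Izumo1 without wild type replicate 3. Under upper-quartile scaling Zpbp had an adjusted p of 0.0325 in edgeR's quasi-likelihood test. Its log2 fold change of 0.945 there was under 1, so Zpbp was still not called. With 1 library left out in turn, 1 to 4 of the genes were called higher and 0 lower, over all genes 1232 to 4127 were higher and 952 to 3368 lower, and the ratio of summed TPM lay between 1.39 and 1.78. The lone library of a group is then taken to vary like the other group. The lowest counts were those without wild type replicate 2. Without wild type replicate 3, 1940 genes were higher. By limma on log2(TPM + 1) and log2(TPM + 0.1), 2219 and 2117 genes were higher, against 3551 by edgeR. Upper-quartile scaling shifted the median over all genes by 0.21 on the log2 scale and limma on log2(TPM + 1) by -0.20, and the share of calls that were higher was 69.2% and 43.9%, against 57.1%. The 10 genes kept 4 higher calls in each. The ratio of summed expression was 1.84 by FPKM and 1.66 by TMM-scaled CPM, against 1.56 by TPM.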
